A study of Mus musculus with 8 samples.

Results

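The BCL2 family decides whether the mitochondria of a cell release the factors that start apoptosis. The genes described here are 10 of its members, taken as the rows of the deposited table whose gene name equals Bcl2, Bcl2l1, Bcl2l2, Mcl1, Bcl2l11, Bid, Bak1, Bad, Bok or Bik. All 10 were present among the 44343 genes of the table, and all 10 had a mean of at least 10 normalized counts over the 8 libraries, the level required for testing. RNA was sequenced from pancreatic beta cells of mice that carried MipCreER, a tamoxifen-inducible Cre recombinase under an insulin promoter, together with R26R-EYFP, a reporter that turns recombined cells yellow-fluorescent. The 4 KO libraries came from mice with Adar floxed on both alleles and the 4 Het libraries from mice with Adar floxed/+. Mice of both genotypes received 2 tamoxifen doses of 8 mg at 1 month of age, and the cells positive for YFP were collected by flow sorting after 7 days. The controls thus also carried the Cre, the reporter and a floxed Adar allele, and took tamoxifen. The labels do not say how many animals stand behind a library, so p-values measure only the spread between libraries, which may in part be technical.

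Members of the family share a short helix, the BH3 region, through which they bind one another. The survival members (Bcl2, Bcl2l1 encoding BCL-XL, Bcl2l2 encoding BCL-W, and Mcl1) hold the others in check at the outer mitochondrial membrane. The effectors Bak1 and its relative Bax form the pores through which cytochrome c leaves, and Bok is a related pore-forming protein. The BH3-only members Bcl2l11 (BIM), Bid, Bad and Bik occupy the survival members or engage the effectors, and beta cells under cytokine or endoplasmic reticulum stress are known to use several of them.

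The BH3 coding stretches of 2 survival members, 1 BH3-only member and 1 effector are shown as examples of the element that the classes share. They are the coding strand of the GENCODE M21 transcripts (mm10), and capitals mark the 6 codons of the BH3 core, found in the translated reading frame as leucine or methionine, 3 residues of any kind, glycine or serine, and aspartate. Each of the 10 members held exactly 1 such match.
Bcl2l1 (chr2:152829694-152829735, minus strand, exon 2 of 3): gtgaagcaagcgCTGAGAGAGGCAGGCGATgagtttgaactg
Mcl1 (chr3:95659424-95659465, plus strand, exon 1 of 3): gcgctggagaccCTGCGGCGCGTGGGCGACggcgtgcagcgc
Bcl2l11 (chr2:128147138-128147179, plus strand, exon 3 of 4): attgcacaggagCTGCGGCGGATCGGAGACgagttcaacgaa
Bak1 (chr17:27022528-27022569, minus strand, exon 4 of 6): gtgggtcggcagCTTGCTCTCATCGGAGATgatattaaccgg

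Libraries held 5.37 to 15.9 M reads, recovered from the deposited values. Libraries of the same genotype differed in overall level. Of the 6697 genes whose mean reached 200, the median gene of KO 1 and KO 2 lay 0.99 and 1.08 log2 units above the Het mean under the deposited scaling, and that of KO 3 and KO 4 lay at −0.65 and −0.44. KO 3 and KO 4 also held the largest share of reads of olfactory and vomeronasal receptor genes, 0.315% and 0.285% against 0.0342% to 0.236% elsewhere. The Y-linked gene Ddx3y stood at only 1.10 in KO 3 and was listed at 0 in KO 4, and the female transcript Xist stood at 19.2 in Het 1, so these 3 libraries held reads of essentially 1 sex and the other 5 of both. Results are therefore given under the deposited scaling, under TMM factors computed from the 6697 abundant genes, or under both. The TMM setting, called abundant-gene scaling, was adopted after earlier results of these data were known. It sets the median abundant gene within 0.01 log2 units of 0 in every library. KO 3 also had the largest mitochondrial share, 17.4% of reads against 6.90% to 10.4% in the other 7 libraries. The 10 listed beta-cell markers were present in every library. Under abundant-gene scaling Ins2 was at 547555 to 698492 in Het and at 154510, 439071, 662451 and 190528 in KO 1 to 4 (log2 difference −0.95, limma adjusted p = 0.357). The alpha-cell gene Gcg was at 150 to 517 in Het and 486 to 982 in KO under the deposited scaling (log2 fold change 1.05, adjusted p = 0.722). With abundant-gene scaling Gcg was at 182 to 666 in Het and 308 to 1313 in KO. Ins2 under the deposited scaling was at 389199 to 799944 in Het and 125891 to 835219 in KO. The leukocyte gene Ptprc was at 34.3 to 64.0 in Het and 15.5 to 73.9 in KO under the deposited scaling. Adar itself was at 744 to 1187 in Het and 615 to 4030 in KO under the deposited scaling (log2 fold change 0.75 ± 0.58 SE, limma adjusted p = 0.910). This value counts the whole gene and not the floxed part, so it does not check the labels. In bulk RNA of this kind, fewer cells of a type and less RNA per cell cannot be told apart.

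Beta cells held far more Mcl1 RNA per length than any other of the 10 genes. Levels between genes are compared here as normalized counts per kb of annotated exon under abundant-gene scaling, as mean ± SD of the 4 Het libraries. Mcl1, a short-lived survival protein, stood at 326 ± 12.1 per kb. Next came the survival genes Bcl2l2 at 98.4 ± 8.36 and Bcl2l1 at 86.8 ± 8.54, whose Het ranges overlapped. The effector Bak1 (37.1 ± 2.13) and the BH3-only gene Bad (37.0 ± 6.66) had nearly the same level, and Bcl2l11 (26.4 ± 2.28) and Bok (25.5 ± 8.59) followed. Bid, whose protein links death receptors to mitochondria, stood at 14.3 ± 2.78. The ranges of neighbours overlapped from Bak1 down to Bid, while Mcl1 was separate from Bcl2l2, Bcl2l1 from Bak1, and Bid from Bik. The length counts every annotated exon (9157 bases for Bcl2 and 8029 for Bcl2l11), which lowers the value of genes whose long forms are little used.

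**Figure D1:**
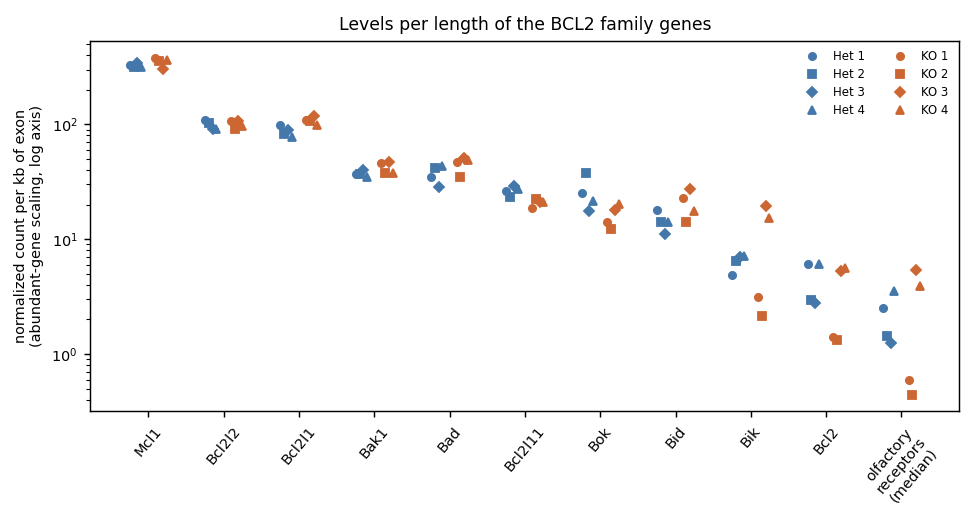
Normalized counts per kb of annotated exon (log axis, abundant-gene scaling) of the 10 genes and of the median olfactory or vomeronasal receptor gene; each point is 1 library, blue for Het and orange for KO, with the symbol giving the replicate number. Mcl1 lies highest in all 8 libraries, and in the 4 Het libraries Bcl2 and Bik lie closest to the receptor genes.

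Bcl2 and Bik, the founding survival gene and a BH3-only gene of the endoplasmic reticulum, had the lowest Het levels per length, the nearest to genes that belong to sensory neurons. Per kb, Bcl2 stood at 4.48 ± 1.88 and Bik at 6.38 ± 1.05 in Het, where the median of the olfactory and vomeronasal receptor genes was 2.18 ± 1.06. Across the 8 libraries Bcl2 lay at 0.983 to 3.02 times this receptor median of the same library, and Bik at 1.95 to 5.63 times. By comparison Mcl1 lay at 56.5 to 805 times it. Bik rested on 5 to 27 reads per library and Bcl2 on 18 to 57.

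Under the deposited scaling the levels of most members followed the library and not the genotype. Of the 10 members, 0 passed the limma test across all genes (adjusted p under 0.05), where 0.944% of the 21498 genes tested did (198 higher and 5 lower in KO). At an unadjusted p under 0.05 there were again 0, against 6.75% of all genes. The lowest adjusted p of a member was 0.814, for Bid. On recovered reads, edgeR also called 0 (0 at an unadjusted p under 0.05) and DESeq2 0 (1 at an unadjusted p under 0.05, Bid). Of the 10 log2 differences, 7 were positive, with a median of 0.32, beside a median of 0.05 over all genes tested and of 0.24 over the 6697 abundant genes.

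Mcl1 and Bcl2l1 serve as examples. Mcl1 was at 929, 1064, 1336 and 765 normalized counts in Het 1 to 4 and at 2338, 2321, 591 and 823 in KO 1 to 4. Bcl2l1 was at 370, 370, 465 and 255 in Het and at 902, 928, 308 and 301 in KO. For both genes KO 1 and KO 2 exceeded every Het library, while KO 3 and KO 4 lay within the Het range or, for Mcl1 in KO 3, below it. With KO 1 and KO 2 alone set against the Het libraries, 7 members were called higher (Bcl2l1, Bcl2l2, Mcl1, Bcl2l11, Bid, Bak1 and Bad), where 61.6% of all genes were called in either direction. Of the 21498 genes tested, 9780 were called higher and 3458 lower. With KO 3 and KO 4 alone, 1 member was called, Bcl2l11, lower by a log2 fold change of −0.88. There 8.72% of all genes were called, 273 higher and 1602 lower. Bcl2l11 thus changed direction between the pairs of KO libraries under this scaling, from a log2 fold change of 0.66 with KO 1 and KO 2. No member had 4 KO values that all lay outside the Het range on 1 side, which 3.08% of all genes had.

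**Figure D2:**
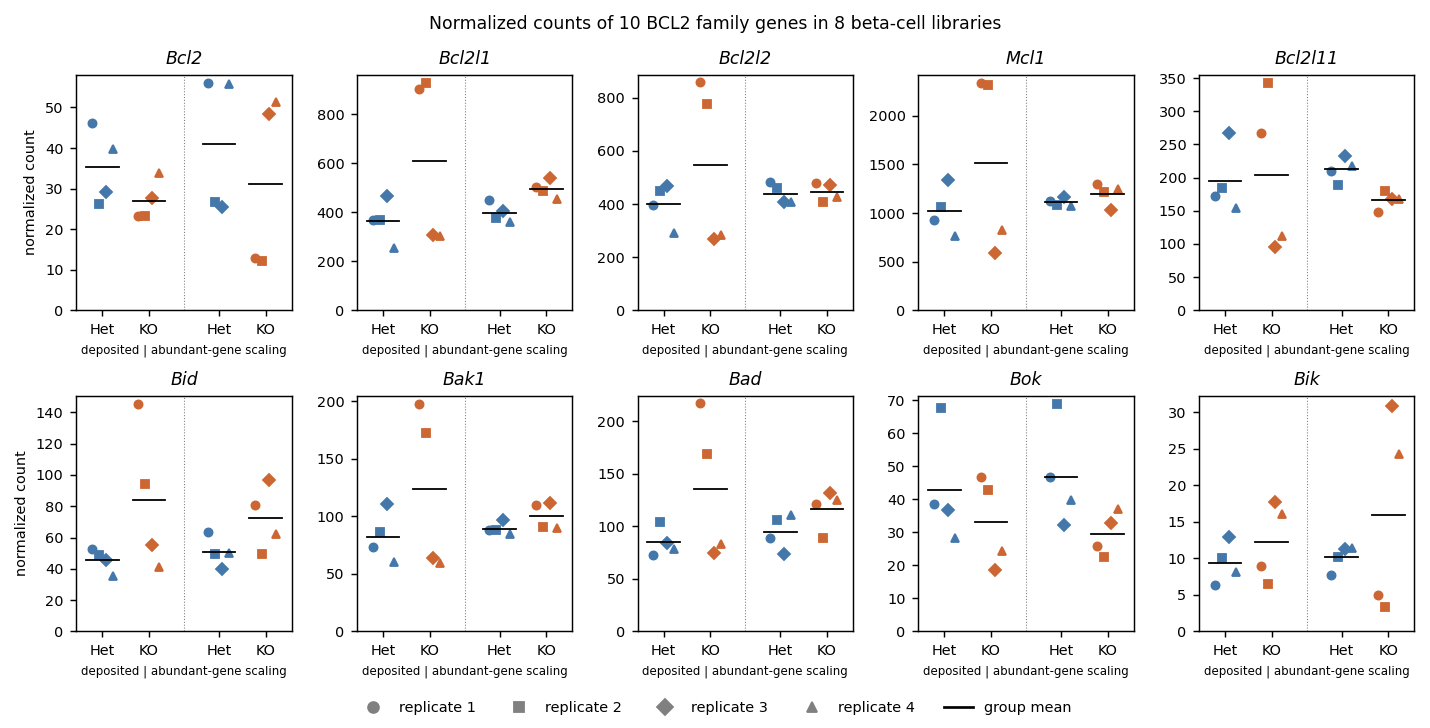
Normalized counts (linear axis from 0) of each of the 10 genes in the 4 Het (blue) and 4 KO (orange) libraries, on the left of each panel under the deposited scaling and on the right under abundant-gene scaling; symbols give the replicate number and lines the group means. For Mcl1, KO 1 and KO 2 stand at 2338 and 2321 on the left and at 1302 and 1220 on the right.

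Relative to the abundant genes, the BCL-XL gene was somewhat higher and the BIM gene somewhat lower in each of the 4 KO libraries. Both genes lie on chromosome 2 of mm10, Bcl2l1 at chr2:152780668-152831728 on the minus strand and Bcl2l11 at chr2:128126038-128162547 on the plus strand. Under abundant-gene scaling Bcl2l1 was at 449, 378, 406 and 359 in Het 1 to 4 and at 502, 488, 539 and 456 in KO 1 to 4. All KO values lay above all Het values, the closest being Het 1 and KO 4. The log2 difference was 0.32 ± 0.12 (SE, limma adjusted p = 0.228), with a 95% interval of 0.06 to 0.58. Bcl2l11 was at 210, 189, 233 and 218 in Het and at 149, 180, 168 and 168 in KO. All KO values lay below all Het values, the closest being Het 2 and KO 2. Its log2 difference was −0.35 ± 0.14 (SE, limma adjusted p = 0.272), with a 95% interval of −0.65 to −0.05. Neither passed the adjusted threshold, which 1.54% of all genes passed (246 higher and 85 lower), so neither is called changed.

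The same 2 members had an unadjusted p under 0.05, where 13.4% of all genes did, and the same 2 had groups that did not overlap, where 9.74% of all genes did. Against these shares, 2 of 10 shows nothing particular to the family. This scaling moved the median log2 difference of all tested genes from 0.05 to −0.18, and the members' median to 0.12. On leaving out each library in turn, the log2 difference of Bcl2l1 ran from 0.27 to 0.38 and that of Bcl2l11 from −0.40 to −0.30, with adjusted p-values of at least 0.202 throughout. Within the pairs of KO libraries the values were also close, at 0.32 with KO 1 and KO 2 and 0.32 with KO 3 and KO 4 for Bcl2l1, and at −0.37 and −0.33 for Bcl2l11.

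**Figure D3:**
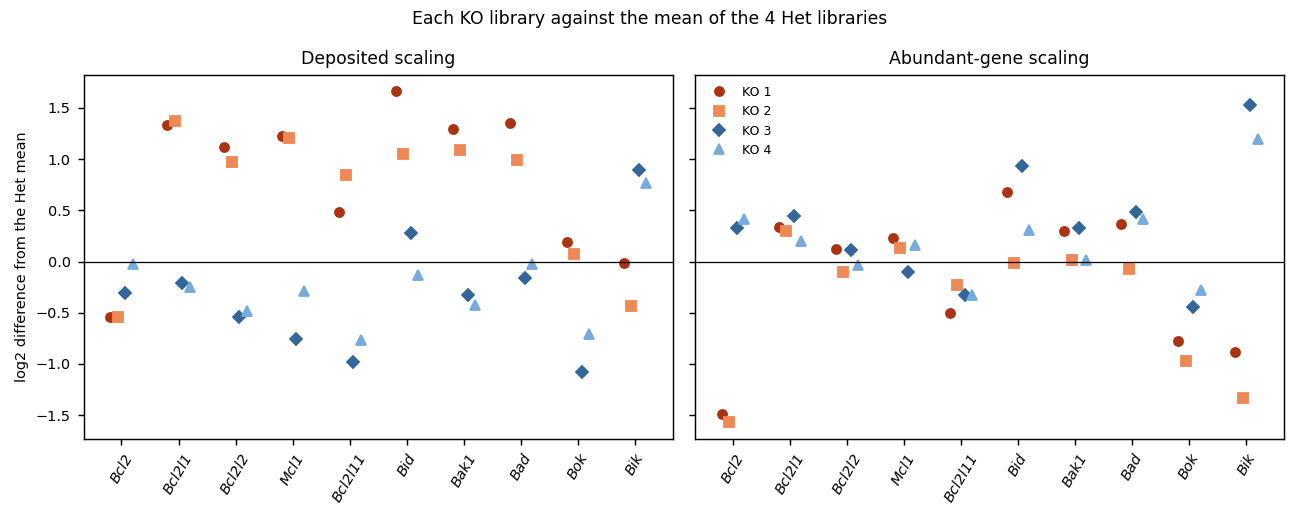
Log2 difference of each KO library from the mean of the 4 Het libraries for the 10 genes, under the deposited scaling (left) and abundant-gene scaling (right); each symbol is 1 KO library. On the left KO 1 and KO 2 lie apart from KO 3 and KO 4 for most genes. On the right all 4 lie above 0 for Bcl2l1 and below 0 for Bcl2l11 and Bok. Those of Bak1 also lie above 0, but at only 0.02 in KO 2 and 0.01 in KO 4.

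The ratio of reads of these genes within a library needs no scaling between libraries. Bcl2l11 reads made up 31.8% of the reads of Bcl2l11 and Bcl2l1 together in Het 1 (95% exact Clopper-Pearson interval 27.4% to 36.5%, for counting error only), 33.3% in Het 2 (29.0% to 37.9%), 36.4% in Het 3 (33.2% to 39.7%) and 37.7% in Het 4 (33.5% to 42.1%). The share was 22.9% in KO 1 (20.6% to 25.2%), 27.0% in KO 2 (24.2% to 29.9%), 23.8% in KO 3 (19.5% to 28.5%) and 27.0% in KO 4 (23.7% to 30.5%). Its mean was 34.8% ± 2.72 in Het and 25.1% ± 2.15 in KO (SD, n = 4 each), and the groups did not overlap. It is given without a test, since the pair was singled out after its values were seen. Its separation also adds no new evidence. Under abundant-gene scaling all KO values lay above all Het values for Bcl2l1 and below them for Bcl2l11. The factor of a library cancels in the ratio, so the shares had to separate. Every KO share lay below every Het share, so any subset of libraries is separated by arithmetic and adds no information. In the libraries with reads of both sexes, Het 2 to 4 were at 33.3% to 37.7% and KO 1 and KO 2 at 22.9% and 27.0%. The part of sex was not tested.

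**Figure D4:**
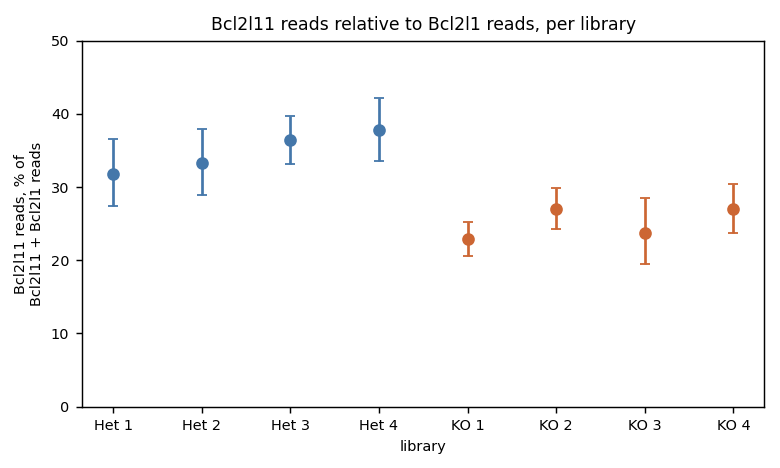
Bcl2l11 reads as a percentage of Bcl2l11 plus Bcl2l1 reads in each library, with 95% exact binomial intervals as bars (counting error only); blue is Het and orange is KO. The 4 KO libraries lie at 22.9% to 27.0% and the 4 Het libraries at 31.8% to 37.7%.

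Of the 6 ratios among Bcl2l1, Bcl2l2, Mcl1 and Bcl2l11, the best-counted members, 3 had groups that did not overlap. Each of these 3 contains Bcl2l1 or Bcl2l11, the 2 genes already seen to separate under abundant-gene scaling. Ratios that share a gene are not independent, and no share over all pairs of genes was computed. The count of 3 is therefore not read as a result about the family. Bcl2l11 reads per Mcl1 read averaged 0.190 ± 0.0131 (SD, n = 4) in Het and 0.140 ± 0.0204 in KO. Bcl2l2 reads per Bcl2l1 read were 1.11 ± 0.0896 in Het and 0.901 ± 0.0535 in KO. BCL-W reads outnumbered BCL-XL reads in the 4 Het libraries, though only by 546 to 543 in Het 3. They were fewer in the 4 KO libraries. The ratios of Mcl1 to Bcl2l1, of Mcl1 to Bcl2l2 and of Bcl2l11 to Bcl2l2 overlapped between genotypes. Of the 9 other members, 2 were separated in their ratio to Bcl2l1 (Bcl2l2 and Bcl2l11) and 3 in their ratio to Bcl2l11 (Bcl2l1, Mcl1 and Bak1). Over all genes tested, 14.3% were separated in their ratio to Bcl2l1 and 15.4% in their ratio to Bcl2l11.

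Mcl1 and Bcl2l2 differed little in group mean between genotypes once the abundant genes were set equal. Mcl1 was at 1126, 1086, 1167 and 1076 in Het and at 1302, 1220, 1035 and 1245 in KO under abundant-gene scaling, so 3 KO libraries lay above the Het range and KO 3 below it. The log2 difference of Mcl1 was 0.10, with a 95% interval of −0.15 to 0.36. Bcl2l2 was at 482, 459, 409 and 407 in Het and at 478, 408, 473 and 428 in KO, with groups that overlapped almost fully. Its log2 difference was 0.03 (95% interval −0.23 to 0.28).

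Bcl2 differed between KO libraries more than between genotypes. Under the deposited scaling it was at 46.1, 26.3, 29.1 and 39.7 in Het and at 23.3, 23.3, 27.6 and 33.9 in KO. Under abundant-gene scaling it was at 55.9, 26.8, 25.4 and 55.9 in Het and at 13.0, 12.2, 48.3 and 51.4 in KO, so KO 1 and KO 2 lay below every Het library and KO 3 and KO 4 among the higher ones. With KO 1 and KO 2 alone the log2 fold change was −1.53 (limma adjusted p = 0.00962), the 1 member called there. In that fit 39.7% of all genes were called, 878 higher and 7662 lower. With KO 3 and KO 4 alone it was 0.37, and 0 members were called, where 3.95% of all genes were. The receptor genes were likewise lower in KO 1 and KO 2 than in the other KO libraries, with medians per kb of 0.589, 0.443, 5.36 and 3.93 for KO 1 to 4. The leukocyte gene Ptprc showed the same split, at 16.5, 8.16, 129 and 92.8 in KO 1 to 4 under the same scaling. The split was not particular to leukocyte genes. The endothelial gene Kdr was at 15.5, 15.0, 133 and 93.7 in KO 1 to 4, and the stromal gene Pdgfrb at 17.0, 6.80, 83.0 and 63.1. The acinar gene Cel was at 4.49, 6.80, 50.2 and 33.3. The ductal gene Krt7 did not show it, at 2040, 1750, 1947 and 1753. Lymphocytes use Bcl2, and the summed 4 T-cell markers reached 46.3 to 92.2 in Het and 27.2 to 81.6 in KO, and the 3 B-cell markers 54.9 to 81.0 and 37.5 to 83.8, under the deposited scaling and with no marker at 0 in any library. The part of other cell types, or of what the receptor genes reflect, in the values of Bcl2 was not tested.

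Bik showed the same split. It was at 7.77, 10.2, 11.2 and 11.4 in Het and at 4.99, 3.40, 30.9 and 24.3 in KO under abundant-gene scaling, with KO 1 and KO 2 below the Het range and the other KO libraries above it. Its log2 difference over the 4 KO libraries was 0.13 (95% interval −1.51 to 1.77), an interval too wide to read a direction from.

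The effector Bak1 was at 88.6, 88.0, 96.5 and 84.4 in Het and at 110, 90.5, 112 and 90.1 in KO under abundant-gene scaling, with KO 1 and KO 3 above the Het range and KO 2 and KO 4 inside it. Its log2 difference was 0.16 (95% interval −0.25 to 0.58). Bok, the other pore-former of the list, was at 46.6, 68.9, 32.2 and 39.9 in Het and at 26.0, 22.5, 32.8 and 36.9 in KO. KO 1 and KO 2 lay below every Het library, and KO 3 and KO 4 overlapped the lowest Het libraries. The log2 difference of Bok was −0.62, with an interval of −1.48 to 0.24.

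Of the remaining BH3-only genes, Bid had the smallest p of all members under the deposited scaling (log2 fold change 0.72 ± 0.40 SE, limma adjusted p = 0.814). It was there at 52.5, 48.8, 45.4 and 35.6 in Het and at 145, 94.5, 55.1 and 41.1 in KO, so that 3 KO libraries exceeded the Het range and KO 4 lay inside it. Under abundant-gene scaling the difference was 0.48 (95% interval −0.18 to 1.13), and KO 2 moved inside the Het range. Bad, which binds BCL-XL and BCL2, was at 88.6, 106, 73.3 and 111 in Het and at 121, 88.5, 131 and 125 in KO under abundant-gene scaling, with KO 2 inside the Het range and the other KO libraries above it. Its difference was 0.30 (95% interval −0.16 to 0.76).

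The genes whose profile over the 8 libraries was most like that of Bid were Sat1, which acetylates spermidine and spermine, Ngdn and Rxylt1. Their log2 values under the deposited scaling, each centred on its own mean, differed from those of Bid by 0.10 log2 units on average, out of 6588 genes compared. All 4 genes were highest in KO 1 and next highest in KO 2. The log2 fold changes of Sat1, Ngdn and Rxylt1 were 0.75, 0.66 and 0.80, and 0 of the 3 were called. These genes were chosen for their likeness to Bid, so the like order and fold changes follow from the choice. The median abundant gene was also higher in KO 1 and KO 2 than in KO 3 and KO 4 under this scaling.

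Part of the exons of some members is shared with other genes. Of the exon bases, 25.5% of Bak1 lie opposite Ggnbp1, 20.5% of Bad opposite Gpr137, 17.7% of Bid opposite Bcl2l13, 6.09% of Bcl2 opposite an antisense RNA, and 13.3% of Bcl2l2 in the same direction as Gm20521. The strand setting of the counting is not given in the sources used here, so reads of these parts may belong to either gene. Bcl2l1, Bcl2l11 and Mcl1 have no such overlap in the annotation.

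The wider pathway was read in 3 lists chosen by role. Of 15 other BCL2 family genes 10 were tested, and 1 was called higher and 0 lower, where 0.944% of all genes were called under the deposited scaling. The called gene was Bbc3, which encodes the BH3-only protein PUMA, a p53 target. Bbc3 was at 70.5, 71.3, 51.4 and 39.7 in Het and at 465, 194, 78.3 and 165 in KO under the deposited scaling, with all KO values above all Het values. Groups that did not overlap, in either direction, were found for 3.08% of all genes. Its log2 fold change was 1.69 ± 0.42 (SE, limma adjusted p = 0.00899), and 1.45 ± 0.32 with abundant-gene scaling (adjusted p = 0.0443). Without Het 3, Het 4 or KO 1 the adjusted p under the deposited scaling was 0.0855, 0.206 and 0.307, and it was 0.0173 with KO 3 and KO 4 alone. With abundant-gene scaling it was 0.0811 to 0.175 without any of Het 1 to 4, KO 1 or KO 4, with log2 differences of 1.26 to 1.60.

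Of the rest of that list under the deposited scaling, Bax, the partner of Bak1, had a log2 fold change of 0.74 (adjusted p = 0.791). Hrk, a BH3-only gene of neurons, had 1.05 (adjusted p = 0.664) and Bcl2l14 −0.53 (adjusted p = 0.905). Pmaip1, which encodes NOXA, had a mean of 9.49 and just missed the level for testing. Bcl2a1a, Bcl2a1d and Bcl2l10 had means of 3.45 to 6.32.

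Of 16 genes of the mitochondrial apoptosis machinery, all tested, 13 had positive log2 fold changes under the deposited scaling and 0 were called by limma (2 were higher and 0 lower when p was left unadjusted, a cut that 6.75% of all genes passed). Of all genes tested, 11678 of 21498 were positive, and of the abundant genes 5104 of 6697. Vdac3, a channel of the outer mitochondrial membrane, was called with abundant-gene scaling, at 297, 329, 302 and 284 in Het and 565, 391, 732 and 500 in KO (log2 difference 0.82 ± 0.17 SE, limma adjusted p = 0.0379). With that scaling 1.54% of all genes were called. Under the deposited scaling the adjusted p of Vdac3 was 0.677, and with abundant-gene scaling it was 0.0608 to 0.136 on leaving out any of Het 1 to 4, KO 1 or KO 4. Xiap, an inhibitor of caspases, had a log2 difference of 0.68 with abundant-gene scaling (adjusted p = 0.0966), and Cycs, cytochrome c, 0.46 (adjusted p = 0.291).

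Of 18 regulators of the family, all tested, 0 were called under either scaling (with p left unadjusted, 1 higher and 0 lower under the deposited scaling, and 3 higher and 3 lower with abundant-gene scaling, beside 6.75% and 13.4% of all genes). With abundant-gene scaling Trp53, which drives Bbc3, was at 166, 196, 145 and 194 in Het and at 400, 218, 238 and 304 in KO (log2 difference 0.69, limma adjusted p = 0.108). Its groups did not overlap, which held for 9.74% of all genes. Ddit3, the stress factor CHOP, which can induce Bcl2l11 and Bbc3, had a log2 difference of 0.57 (adjusted p = 0.146) and groups that overlapped. Pim3, a kinase that acts on BAD, had 0.32 (adjusted p = 0.438), and Casp8, which cleaves BID, 0.21 (adjusted p = 0.784).

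The promoters were searched on both strands for 3 motifs, in windows of 300 bases around 13 RefSeq start sites (GRCm38.p6) of 9 members. Interferon-stimulated response elements (GAAA, any 2 bases, GAAA) were in 0 of the 13 and in 3.44% of 32851 promoters, and interferon-gamma sites (TTCNNNGAA) in 0 of the 13 and in 8.30%. A FOXO motif (GTAAACA), of a factor family known to induce BIM, was in 1 of the 13 and in 3.65% of all promoters. It lay 227 bases before a start site of Bcl2l11 and is shown here, with the motif in capitals, as the only match in the 13.
Bcl2l11 (chr2:128125800-128125828, plus strand): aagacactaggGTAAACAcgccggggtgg
The match describes the letters and not binding, and any part of it in the values of Bcl2l11 was not tested.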

How the data were processed

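The deposited signal values are gene counts that the authors divided by 1 size factor per library, per the file's own naming as normalized counts. Tools named in the submitters' processing notes, without roles, are STAR 2.7.3a, HTSeq, DESeq2 1.28.1, UMI-tools and FastQC 0.11.8, with the build mm10; annotation and counting mode are not given in the sources used here. Libraries were made with a stranded pico-input total RNA kit, per the labels' protocols. All values (100%) were whole multiples of a library's smallest value, within 0.001 of a step, so whole reads were recovered (5.37 to 15.9 M per library). Replicate libraries differed by more than counting noise (chi-square per degree of freedom at least 3.62).

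Genotypes were compared with limma 3.58.1 in R 4.3.3, fitted to log2(value + 1) for the 21498 genes with a mean of at least 10, two-sided, eBayes with trend and robust settings, genotype as the only term, and Benjamini-Hochberg adjustment over all genes; fold changes are KO relative to Het on this scale and understate low genes. With the deposited scaling, gene variances did not scatter beyond their trend, so genes of like level share 1 spread there. Count tests on recovered reads were edgeR 4.0.16 (quasi-likelihood) and DESeq2 1.42.0. DESeq2 size factors computed from the recovered reads equalled the deposited factors in every library, for example 0.780574 in Het 1. The DESeq2 test therefore used the deposited scaling and is no alternative to it. On simulated data (22015 genes) the test called 44.0% of genes raised and 52.4% of genes lowered by 1 log2 unit. It called 100% and 95.2% of those changed by 2. The simulation gave all genes 1 dispersion and no shift in level between libraries of a genotype. Members had SEs of 0.40 (Bok) to 0.57 (Mcl1) under the deposited scaling, so the simulated shares need not hold for them. Thus 0 calls do not by themselves exclude changes of 1 log2 unit or more. Lengths and coordinates are from GENCODE M21. The replicate number was not a term of the main fit, and the checks made do not exclude a batch shared by libraries of the same number. Other alternatives were pseudocounts, filters, TMM and quantile scaling, array weights, the replicate block, and leaving out libraries. The named genes are the members, Adar, the 4 genes of smallest p of each list and any called, the 3 profiles most like the member of smallest p, and top markers; a gene that this rule names is not reported here. The members, lists and abundant-gene scaling were chosen with earlier results of these data known.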

Additional observations from a re-analysis of the deposited data

How the results depend on the processing

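No member was called under any alternative that kept all libraries or left out 1 of them, although Bcl2, Bok and Bik were not tested with a mean of at least 50, and only 3 members (Bcl2l1, Bcl2l2 and Mcl1) with a mean of at least 200; DESeq2 gave no adjusted p for Bik. Comparing the Het libraries with KO 1 and KO 2 only gave 7 members higher, 37 of the 44 tested pathway genes higher, and 9780 genes higher and 3458 lower. With KO 3 and KO 4 only, 1 member, 4 pathway genes and 1602 genes were lower, and 0 members, 1 pathway gene and 273 genes higher. With abundant-gene scaling, chosen after seeing the data, 246 genes were higher, 85 lower and 2 pathway genes higher; with KO 1 and KO 2 only it gave 1 member lower, 8 pathway genes higher and 2 lower, and 878 and 7662 genes, and with KO 3 and KO 4 only 2 pathway genes higher and 1 lower, and 487 and 363 genes. Keeping only genes with a mean of at least 200, with TMM factors from them, gave 404 and 284 genes and 3 and 1 pathway genes. Quantile normalization gave 320 and 138 genes and 2 pathway genes higher, and omitting trend and robust settings 127 and 1, with 0 pathway genes higher. Lower genes numbered 2 with a mean of at least 50, 8 with TMM scaling, 18 with array weights, 8 with edgeR and 3 with DESeq2.

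Leaving out each library in turn under the 3 scalings gave 81 to 538 genes higher, 1 to 346 lower, and 0 to 3 pathway genes higher and 0 to 1 lower. The log2 fold change then ran from −0.11 to 0.54 for Bcl2l2, −0.48 to 0.19 for Bcl2l11, −0.34 to 0.61 for Bik and −0.041 to 0.72 for Mcl1, each of which changed sign. Of 410 member values over all alternatives, 30 changed sign. Bcl2l2 did so at −0.0064 with quantile normalization and −0.0123 with array weights, and Bcl2l11 at 0.0656 with DESeq2. With KO 1 and KO 2 only, Bcl2l11 stood at 0.66, Bok at 0.13 and Bik at −0.22 (−1.10 with abundant-gene scaling). With KO 3 and KO 4 only, Bcl2l1 stood at −0.23, Bcl2l2 at −0.51, Mcl1 at −0.52, Bak1 at −0.38, Bad at −0.093, and Bcl2 at 0.37 with abundant-gene scaling. The cause was not tested.

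Same-numbered libraries did not deviate together for every number (correlations of −0.28, 0.27, −0.55 and 0.63 for numbers 1 to 4, deposited scaling). These values carry the shifts in level between libraries, so they do not exclude a shared batch. With the replicate number as a block, 182 genes were higher, 5 lower and 0 members called, and with abundant-gene scaling and the block 421 and 299 genes, 5 pathway genes and 0 members. Bik and Bcl2 rested on few reads, at 5 to 27 and 18 to 57 per library.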
